A study of Mus musculus with 2 samples.

Results

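The 10 genes described here belong to fibroblast growth factor (FGF) signalling and were followed by name through the mouse gastroesophageal squamocolumnar junction (GE-SCJ) and its neighbouring tissues: 5 receptors (Fgfr1, Fgfr2, Fgfr3, Fgfr4 and Fgfrl1) and 5 response genes (Spry1, Spry2, Spry4, Etv4 and Etv5). All 10 were among the 19550 genes of the deposited count table. The table held single cells of wild-type C57BL/6 mice from esophagus, GE-SCJ and stomach, taken on embryonic day 15 (E15), embryonic day 19 (E19), on day 2 after birth (pup) and in week 8 (adult). Cells of each region and stage carried 1 lipid tag and were sequenced together in 1 droplet library. Adult stomach is not analysed here, which leaves 11 of 12 tags. By the labels 6 mice at E15 and 3 adults were used, with 2 mice each at E19 and pup, and their tissue was combined within a tag. Each region and stage is therefore 1 pooled sample, and no difference between stages or regions has a replicate check or a test. Levels are unique molecular identifiers (UMIs) of a gene per 1000000 UMIs of a group of cells (CPM), with exact Poisson 95% intervals in parentheses. Ratios are on the log2 scale, with 1 UMI added to each sum and exact binomial 95% intervals. All intervals cover counting error only. Counts from transcript 3′ ends do not separate the splice forms of a receptor, and genes are captured with unequal efficiency. Where UMIs of a pair of receptors are given as a share, the share is compared between groups and says nothing of which receptor is more abundant.

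FGF receptors 1 to 4 are tyrosine kinases that bind secreted FGFs together with heparan sulfate and pass the signal on through the adaptor Frs2, Grb2 and the Ras and MAP kinase cascade. Fgfrl1 binds FGFs but lacks the kinase domain. The Sprouty genes Spry1, Spry2 and Spry4 are switched on by the cascade and encode its feedback inhibitors, while Etv4 and Etv5 encode ETS transcription factors that are used as readouts of FGF activity. In the foregut, mesenchymal Fgf10 and Fgf7 signal to Fgfr2 of the epithelium.

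The start regions of 4 of these genes are shown because Fgfr2 and Fgfr3 are the receptors of the squamous lining and because Spry1 and Spry2 were high together in the fibroblasts of pups. Each is 300 bases, from 250 before to 50 after a transcript start in RefSeq (GRCm38.p6), read 5′ to 3′ on the strand of the gene. Capitals mark matches on either strand to 5 motifs: the ETS core CCGGAA, AP-1 (TGANTCA), EGR (GCGNGGGCG), the GC box GGGCGG, which an EGR match can overlap, and the cyclic AMP response element TGACGTCA. Fgfr2 lies on the minus strand at chr7:130266759-130267058, Fgfr3 on the plus strand at chr5:33721474-33721773, Spry1 on the plus strand at chr3:37639697-37639996 and Spry2 on the minus strand at chr14:105896770-105897069.
Fgfr2: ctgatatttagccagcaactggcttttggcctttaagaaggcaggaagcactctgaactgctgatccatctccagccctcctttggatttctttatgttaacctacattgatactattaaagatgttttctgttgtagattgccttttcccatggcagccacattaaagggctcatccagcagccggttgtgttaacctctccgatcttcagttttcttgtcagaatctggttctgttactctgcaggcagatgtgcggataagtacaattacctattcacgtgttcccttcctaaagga
Fgfr3: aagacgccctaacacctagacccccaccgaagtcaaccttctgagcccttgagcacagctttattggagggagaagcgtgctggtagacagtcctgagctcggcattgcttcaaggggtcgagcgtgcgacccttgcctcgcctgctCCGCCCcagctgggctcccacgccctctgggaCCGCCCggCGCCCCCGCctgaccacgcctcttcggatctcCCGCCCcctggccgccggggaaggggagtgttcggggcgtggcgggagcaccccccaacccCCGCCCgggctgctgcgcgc
Spry1: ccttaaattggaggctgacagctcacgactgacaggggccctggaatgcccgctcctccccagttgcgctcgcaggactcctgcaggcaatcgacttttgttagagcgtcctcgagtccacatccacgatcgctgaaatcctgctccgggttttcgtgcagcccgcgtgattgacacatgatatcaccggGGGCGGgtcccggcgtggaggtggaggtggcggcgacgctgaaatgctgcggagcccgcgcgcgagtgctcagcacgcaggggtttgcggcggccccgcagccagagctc
Spry2: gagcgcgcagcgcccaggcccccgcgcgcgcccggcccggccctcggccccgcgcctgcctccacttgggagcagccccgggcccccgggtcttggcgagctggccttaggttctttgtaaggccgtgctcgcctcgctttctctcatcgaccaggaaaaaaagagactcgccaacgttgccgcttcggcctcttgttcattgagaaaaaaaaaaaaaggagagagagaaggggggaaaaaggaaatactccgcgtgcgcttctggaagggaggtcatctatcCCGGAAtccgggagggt
The Fgfr2 window had a GC content of 43.7% and no match, against 69.7% in the Fgfr3 window, which held 1 EGR match and 4 GC boxes. Another Fgfr3 window, at chr5:33722056-33722355 and not printed here, had a GC content of 73%, 2 GC boxes and no EGR match. The Spry1 window held 1 GC box and the Spry2 window 1 ETS core. Of 32851 RefSeq windows of the same length, 14.9% held the ETS core, 7.81% AP-1, 5.55% EGR, 35.7% a GC box and 1.79% the cyclic AMP element. Windows were used for 7 of the 10 genes, and Fgfr1, Spry4 and Etv4 are named only. In the same build, Fgfr1 spans 25518759 to 25575718 of chromosome 8, Fgfr2 130162451 to 130266808 of chromosome 7, Fgfr3 33721724 to 33737068 and Fgfrl1 108694229 to 108706950 of chromosome 5, and Fgfr4 55152818 to 55168759 of chromosome 13. Spry1 spans 37639947 to 37644599 of chromosome 3, Spry2 105891947 to 105896819 of chromosome 14, Etv4 101769747 to 101785310 of chromosome 11 and Etv5 22381313 to 22439570 of chromosome 16.

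The 7808 cells carried 107865155 UMIs, with a median of 10424.5 per cell and a range of 519 to 79817. The deposited labels gave 3442 stromal cells, called fibroblasts here, 1540 columnar epithelial, 1027 smooth muscle, 730 squamous epithelial under 2 labels, 419 neural, 354 immune and 157 endothelial cells, and 139 cells of a second stromal label. Marker sums followed these names in most classes: fibroblast markers reached 20158 CPM in fibroblasts and 3810 in smooth muscle cells, and squamous markers 17912 CPM in squamous cells and 92.7 in columnar cells. Neural cells carried fibroblast markers at 1500 CPM beside neural markers at 1684. The second stromal cells carried fibroblast markers at 7648 CPM and also mesothelial markers at 2561 CPM. By marker UMIs, 118 of 419 neural and 112 of 1027 smooth muscle cells pointed to another class. So did 125 of 139 second stromal cells, whose own class was taken as mesothelial. Of 87 groups of one class, region and stage, 54 held at least 20 cells and are used below. Among cells with a postnatal tag, 175 of 2051 lay mostly among prenatally tagged cells, 13 of them among the 78 fibroblasts of pup stomach.

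The receptors differed in the classes that held their UMIs, and these shares also depend on how many UMIs each class contributed. Fibroblasts held 70.7% of all Fgfr1 UMIs. Squamous and columnar cells together held most of Fgfr3, with 41.1% and 43.3% of its 2011 UMIs. The class level of Fgfr3 was 77.2 CPM (72.0-82.6) in squamous and 20.2 (18.8-21.5) in columnar cells, beside 18.6 over all cells. Fgfr2 was spread over fibroblasts (37.6%), squamous (23.3%), columnar (19.7%) and smooth muscle cells (17.8%), and columnar cells held 61.4% of Fgfrl1. The class levels of Fgfr2 were 69.1, 130, 27.3 and 97.9 CPM in the same order of classes, beside 55.4 over all cells. Fgfr4 was sparse, with 366 UMIs in all, 45.1% of them in fibroblasts and 44.3% in columnar cells. Its class levels there were 5.08 and 3.75 CPM, beside 3.39 over all cells.

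Fgfr1 was highest in fibroblasts, at a class level of 133 CPM (130-137), before neural (107, 96.3-118) and smooth muscle cells (80.7, 75.5-86.3). In esophageal fibroblasts it stood at 132 CPM (121-144) at E15, 156 (147-166) at E19, 231 (195-272) in pup and 303 (224-401) in adult. At the GE-SCJ the fibroblast levels were 97.4 (87.7-108), 127 (118-137) and 262 CPM (214-317) from E15 to pup, and in stomach 98.2 (88.5-109), 125 (117-134) and 251 (207-302). The 4 highest of all 54 groups were the 3 pup fibroblast groups and adult esophageal fibroblasts, whose intervals overlapped one another. Squamous cells ranged from 0 to 17.3 CPM and immune cells, where a low level from free RNA would show, from 0 to 34.4 CPM. Smooth muscle lay below the fibroblasts of its own region and stage throughout, at 61.8 to 111 CPM in esophagus, 73.9 to 163 at the GE-SCJ and 58 to 134 in stomach.

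The ratio of fibroblasts to epithelium, here squamous and columnar cells together, was higher at each later stage up to pup in all 3 regions. In esophagus the log2 ratio of Fgfr1 CPM, fibroblasts over epithelium, was 2.44 (1.91 to 3.02) at E15, 3.21 (2.75 to 3.71) at E19, 6.43 (4.85 to 8.72) in pup and 5.97 (5.15 to 6.85) in adult. At the GE-SCJ it was 3.12 (2.54 to 3.77), 4.73 (4.25 to 5.24) and 6.06 (5.50 to 6.66), and in stomach 3.77 (3.22 to 4.38), 5.06 (4.58 to 5.59) and 6.51 (5.93 to 7.12). Intervals of E15 and pup did not overlap in any region. Levels differed on the epithelial side too, where columnar cells of the GE-SCJ carried 15.1, 5.03 and 3.42 CPM of Fgfr1 from E15 to pup and those of the stomach 6.99, 3.67 and 2.63. Fibroblast markers in these cells summed to 637, 409 and 196 CPM at the GE-SCJ and 287, 345 and 174 in stomach. In esophageal squamous cells they summed to 1502, 1070 and 290 CPM, where Fgfr1 read 17.3, 13.5 and 1.03. The esophageal epithelium also held 9, 20 and 10 columnar cells from E15 to pup. Their fibroblast markers summed to 6084, 4391 and 130 CPM, and at E19 they carried 24.8 CPM of Fgfr1. Epithelial groups of at least 20 cells, at 0 to 24.8 CPM of Fgfr1, lay within the 0 to 34.4 CPM of immune cells. The 1.03 CPM of pup esophageal squamous cells came from 1 UMI. The part of fibroblast markers or of free RNA in the epithelial levels was not tested. Between 14.6% and 28% of the genes tested were at least 2-fold higher in fibroblasts than in epithelium, depending on region and stage.

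**Figure D1:**
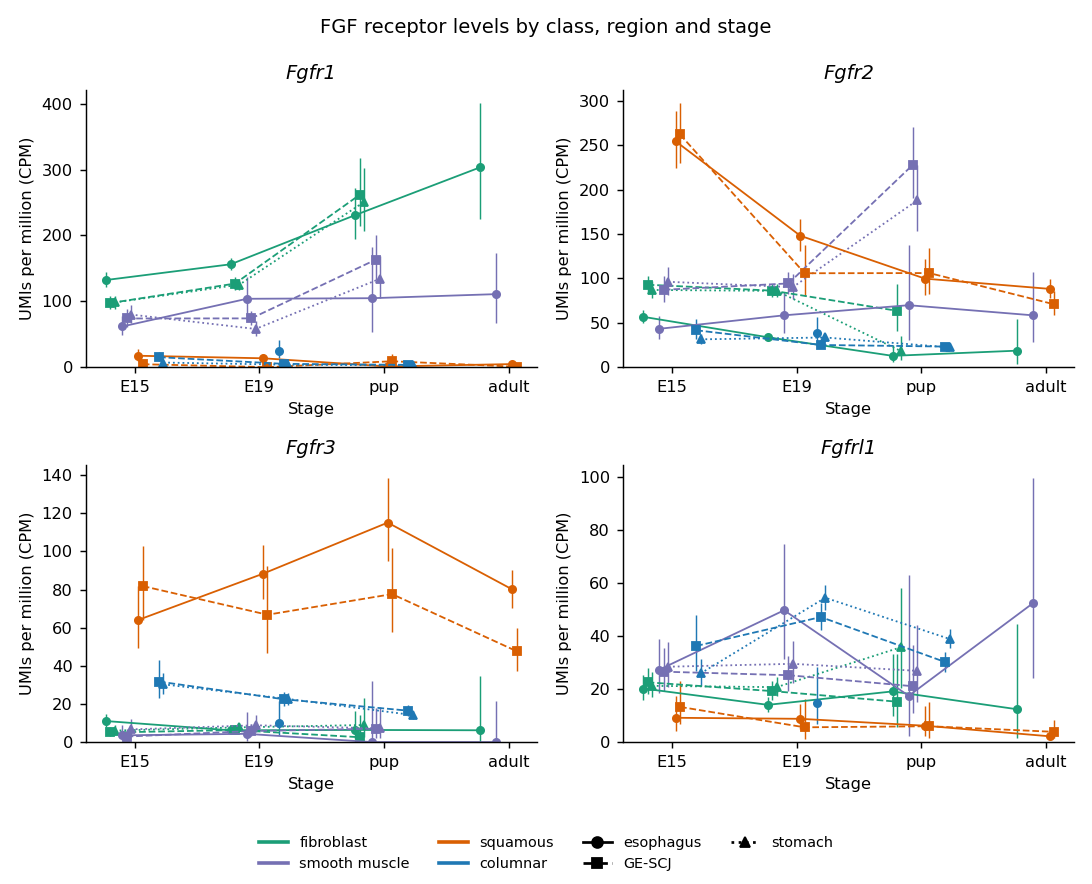
Levels of Fgfr1, Fgfr2, Fgfr3 and Fgfrl1 in CPM (y axis) against stage (x axis), with colour for the cell class and marker and line style for the region; bars are exact Poisson 95% intervals, and groups hold at least 20 cells. Fibroblasts carried the highest Fgfr1, up to 303 CPM, squamous cells the highest Fgfr3, up to 115 CPM, and columnar cells of stomach at E19 the highest Fgfrl1 at 54.5 CPM.

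Fgfr2, the receptor of Fgf7 and Fgf10 in epithelia, was highest in the squamous lining of E15, with intervals that overlapped that of pup smooth muscle of the GE-SCJ at 228 CPM (191-271). Esophageal squamous cells carried 254 CPM (224-288) at E15, 148 (130-167) at E19, 99.7 (80.9-122) in pup and 88.2 (78.2-99.1) in adult. Those of the GE-SCJ carried 262 (230-298), 106 (80.1-137), 106 (82.8-134) and 70.9 (58.2-85.4). The log2 ratio of adult over E15 was -1.53 (-1.78 to -1.28) in esophagus and -1.88 (-2.22 to -1.55) at the GE-SCJ. Taken as the mean of single-cell CPM, the esophageal ratio was -1.02. Over all genes counted, the median adult over E15 ratio was -0.44 in esophageal and -0.39 in GE-SCJ squamous cells. Pup esophagus held 29 cells of the second squamous label. Without them its Fgfr2 level was 158 CPM (127-194), close to E19 and above adult.

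Squamous cells exceeded columnar cells of the GE-SCJ in Fgfr2 at every stage with enough cells. Columnar levels were 41.5 CPM (31.3-54.1) at E15, 25 (21.5-28.9) at E19 and 23.2 (20-26.7) in pup. The log2 ratio of squamous over columnar was 2.64 (2.21 to 3.08), 2.10 (1.65 to 2.53) and 2.21 (1.79 to 2.60) at these stages, when 4.42%, 8.85% and 10.4% of all genes tested were at least 2-fold higher in squamous cells. Fgfr3 had ratios of 1.35, 1.60 and 2.25 in the same order. Fgfrl1 ran the other way, with -1.36, -2.67 and -2.02.

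Fgfr3 did not share the postnatal levels of Fgfr2. In esophageal squamous cells it stood at 64.1 CPM (49.3-82.0) at E15, 88.3 (74.8-104) at E19, 115 (94.8-139) in pup and 80.1 (70.6-90.5) in adult, and the adult over E15 ratio of 0.30 (-0.10 to 0.72) had an interval that included 0. At the GE-SCJ the levels were 81.8 (64.3-103), 66.8 (46.8-92.5), 77.6 (58.0-102) and 47.7 CPM (37.4-59.8), with an adult over E15 ratio of -0.78 (-1.26 to -0.30). The medians over all genes counted were -0.44 in esophagus and -0.39 at the GE-SCJ. Of the UMIs of Fgfr2 and Fgfr3 together in esophageal squamous cells, Fgfr3 made up 20.1% (15.8-25) at E15, 37.4% (32.6-42.3) at E19, 53.6% (46.6-60.5) in pup and 47.6% (43.3-51.9) in adult. At the GE-SCJ it made up 23.8%, 38.7%, 42.3% and 40.2%. The share of Fgfr3 was thus lowest at E15 in both squamous linings. In columnar cells Fgfr3 was lower at each later stage, at 31.7, 22.5 and 16.5 CPM at the GE-SCJ and 30.3, 22.6 and 14.2 CPM in stomach.

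Shares of squamous cells with a UMI gave Fgfr2 the same order. Of E15 esophageal squamous cells, 89.1% held an Fgfr2 UMI, against 59.1% of adult cells, and after each cell was thinned to 5000 UMIs the shares were 75.9% and 41.5%. For Fgfr3 the shares were 46.9% and 53.4% as deposited and 24.1% (13.9-37.2) and 37.4% (30.2-45.1) after thinning, with overlapping Clopper-Pearson intervals. Immune cells of the esophagus, which should lack both genes, had an Fgfr2 UMI in 7.69% to 19.2% of cells as deposited and in at most 5.26% after thinning, and an Fgfr3 UMI in at most 3.85%. Thinning left out 6 of 64 E15 and 61 of 232 adult squamous cells. Median depth was 14214 UMIs in E15 and 9974 in adult squamous cells, and 5817 to 8702 in the immune cells.

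Within the squamous lining of the esophagus, Fgfr2 was lower in cells with more keratin of the upper layers at every stage. Fgfr3 was lower there with an interval clear of 0 only after birth. Esophageal squamous cells with at least 20 keratin UMIs were ordered by the share of Krt4 and Krt13, keratins of suprabasal cells, among the UMIs of Krt4, Krt13 and the basal keratins Krt5, Krt14 and Krt15, and divided into 3 bins of 19 to 72 cells at each stage. From the lowest to the highest bin, Fgfr2 read 351, 298 and 114 CPM at E15, 265, 108 and 78.2 at E19, 195, 116 and 8.63 in pup, and 179, 125 and 32.7 in adult. The highest bin over the lowest gave log2 ratios of -1.60 (-2.19 to -1.04) at E15 and -2.44 (-2.92 to -1.98) in adult. In esophagus Fgfr2 was therefore lower towards the suprabasal end at every stage, and the lowest bin was itself lower in adult than at E15, at 179 (149-215) against 351 CPM (289-422). At the GE-SCJ the same ratio was -1.30 (-1.82 to -0.80) at E15 and -2.03 (-2.76 to -1.32) in adult, but -0.17 (-1.15 to 0.80) at E19 and -0.47 (-1.39 to 0.45) in pup, with intervals that included 0. This division by keratin share was chosen after seeing the data.

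Fgfr3 was more even over the same bins before birth. It read 62.7, 87.3 and 46.7 CPM at E15, and 91.3, 84.2 and 91.2 at E19, with ratios of the highest over the lowest bin of -0.39 (-1.45 to 0.63) and -0.01 (-0.58 to 0.57). In pup it read 169 and 173 CPM in the first and middle bins and had 0 UMIs in the highest, where up to 10.6 CPM is allowed. In adult it read 102, 91.5 and 65.4 CPM, a ratio of -0.65 (-1.09 to -0.19). The highest pup bin stood apart for both receptors. The 29 pup cells of the second squamous label carried 17.4 CPM of Fgfr2 and 4.98 of Fgfr3, against 158 and 193 CPM in the 56 pup cells of the first label.

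**Figure D2:**
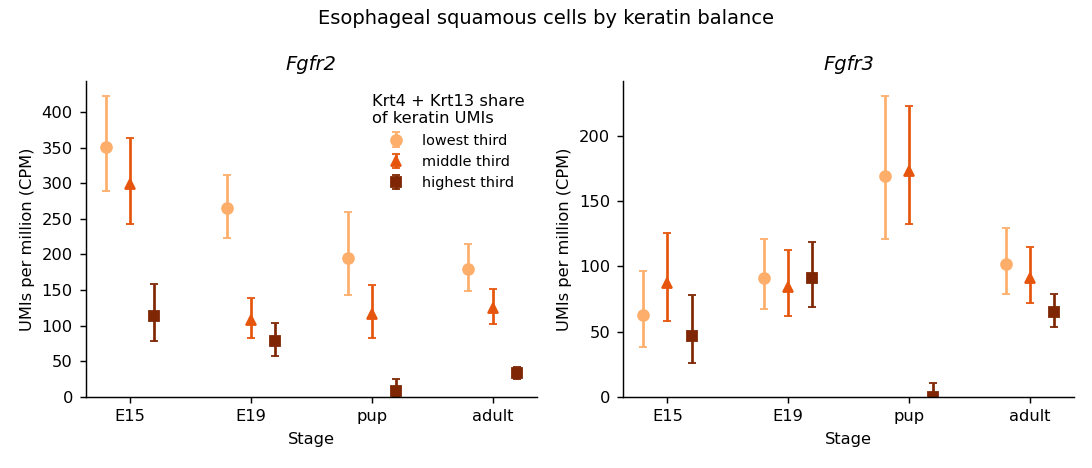
Levels of Fgfr2 and Fgfr3 in CPM (y axis) in esophageal squamous cells against stage (x axis). Marker shape and colour give the lowest, middle and highest bin of the Krt4 and Krt13 share, and bars are exact Poisson 95% intervals. Fgfr2 is lower in the highest bin at all 4 stages, from 351 to 114 CPM at E15 and from 179 to 32.7 CPM in adult, while Fgfr3 is near 91 CPM in the lowest and highest bins at E19 and at 0 in the highest pup bin.

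In the mesenchyme of pup stomach and GE-SCJ, Fgfr2 was lower in fibroblasts than in smooth muscle. Stomach fibroblasts carried 87 CPM (77.9-96.8) at E15, 85.9 (79.0-93.3) at E19 and 17.9 (7.74-35.3) in pup. Smooth muscle of the same tissue carried 96.2 (81.8-112), 90.1 (77.2-105) and 188 CPM (154-228). In pup stomach the log2 ratio of fibroblasts over smooth muscle was -3.24 (-4.40 to -2.26), and at the GE-SCJ, with 63.5 (41.1-93.7) and 228 CPM (191-271), it was -1.80. The pup interval of GE-SCJ fibroblasts included their E15 level of 92.9 CPM. Esophageal fibroblasts had less Fgfr2 from the start, with 56.7, 33.7, 12.7 and 18.6 CPM from E15 to adult. Esophageal smooth muscle carried 43.2 CPM at E15 and 58.4 at E19, so it was above the fibroblasts of its region before birth, at E19. The stomach over esophagus ratio in fibroblasts was 0.61 (0.36 to 0.87) at E15 and 1.35 (1.13 to 1.57) at E19.

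Of the UMIs of Fgfr1 and Fgfr2 together, Fgfr1 made up 70%, 82.3%, 94.8% and 94.2% in esophageal fibroblasts from E15 to adult. The shares were 51.2%, 59.6% and 80.5% at the GE-SCJ and 53%, 59.3% and 93.3% in stomach, so each region had its highest share after birth. In smooth muscle the share was 45.9%, 44% and 41.7% at the GE-SCJ and 45.4%, 39.2% and 41.7% in stomach, without such a difference between stages.

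Fgfrl1, the receptor without a kinase, had 61.4% of its UMIs in columnar cells, and smooth muscle had a lower class level. Stomach columnar cells carried 25.9 CPM (21.1-31.5) at E15, 54.5 (49.9-59.4) at E19 and 38.9 (35.3-42.7) in pup, with an E19 over E15 ratio of 1.06 (0.75 to 1.38). Those of the GE-SCJ carried 36.3 (26.7-48.1), 47.2 (42.3-52.5) and 30.1 (26.5-34.1), and those of E19 esophagus 14.9 (6.8-28.2). Squamous cells stayed between 2.18 and 13.3 CPM. Smooth muscle ranged from 17.4 to 52.5 CPM, the latter from 30 adult esophageal cells. Its class level was 28.2 (25.1-31.5), beside 40.4 (38.5-42.4) in columnar cells. Fgfr4 was found in columnar cells of E15 at 11.7 CPM (8.50-15.6) in stomach and 9.82 (5.23-16.8) at the GE-SCJ, and at 1.95 to 3.25 CPM in both regions later. Fibroblasts of the GE-SCJ held it at 7.96 CPM (5.37-11.4) at E15 and 9.62 (7.24-12.5) at E19, and had 0 UMIs in pup, which allows up to 9.37 CPM.

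Among fibroblasts, the Sprouty genes were highest in those of pups. Spry2 stood in esophageal fibroblasts at 93.2 CPM (83.7-103) at E15, 109 (101-117) at E19, 342 (298-391) in pup and 86.7 (47.4-145) in adult. At the GE-SCJ it stood at 83.8 (74.8-93.6), 93.2 (85.4-101) and 285 (234-342), and in stomach at 89.3 (80.1-99.3), 84.2 (77.4-91.5) and 255 (211-307). Each pup level lay above all prenatal fibroblast levels, and its interval overlapped none of theirs. The pup over E19 ratio was 1.66 (1.43 to 1.88) in esophagus, 1.62 (1.31 to 1.92) at the GE-SCJ and 1.61 (1.31 to 1.90) in stomach.

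Within fibroblasts, Spry1 and Spry4 were also highest in pup, and the other stages had no shared order. Outside fibroblasts, neural cells of pup stomach carried 130 CPM of Spry1 and endothelial cells of E19 stomach 77.8 CPM of Spry4. The class level of Spry4 was 67.9 CPM (56.4-81.2) in endothelial cells and 29.9 (28.0-31.8) in fibroblasts. Spry1 read 40.2 (34.0-47.1), 44.1 (39.3-49.3), 204 (170-242) and 124 CPM (75.6-191) in esophageal fibroblasts from E15 to adult, 55.7, 61 and 102 at the GE-SCJ, and 51.6, 45.7 and 103 in stomach. Its pup over E19 ratio was largest in esophagus, at 2.21 (1.91 to 2.52) against 0.77 (0.26 to 1.24) at the GE-SCJ and 1.20 (0.72 to 1.65) in stomach. Spry4 read 27.6 (22.5-33.4), 23.2 (19.8-27.1), 81.2 (60.5-107) and 24.8 CPM (6.75-63.4) in esophageal fibroblasts, with pup over E19 ratios of 1.83, 1.01 and 1.05 in the 3 regions. Adult over pup in esophageal fibroblasts gave -1.89 (-2.75 to -1.14) for Spry2, -1.42 for Spry4 and -0.66 for Spry1, from 31 adult cells. Summed over the 3 genes, E15 over pup was -1.96 (-2.15 to -1.78), -1.53 (-1.77 to -1.28) and -1.33 (-1.57 to -1.09) in fibroblasts of esophagus, GE-SCJ and stomach.

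**Figure D3:**
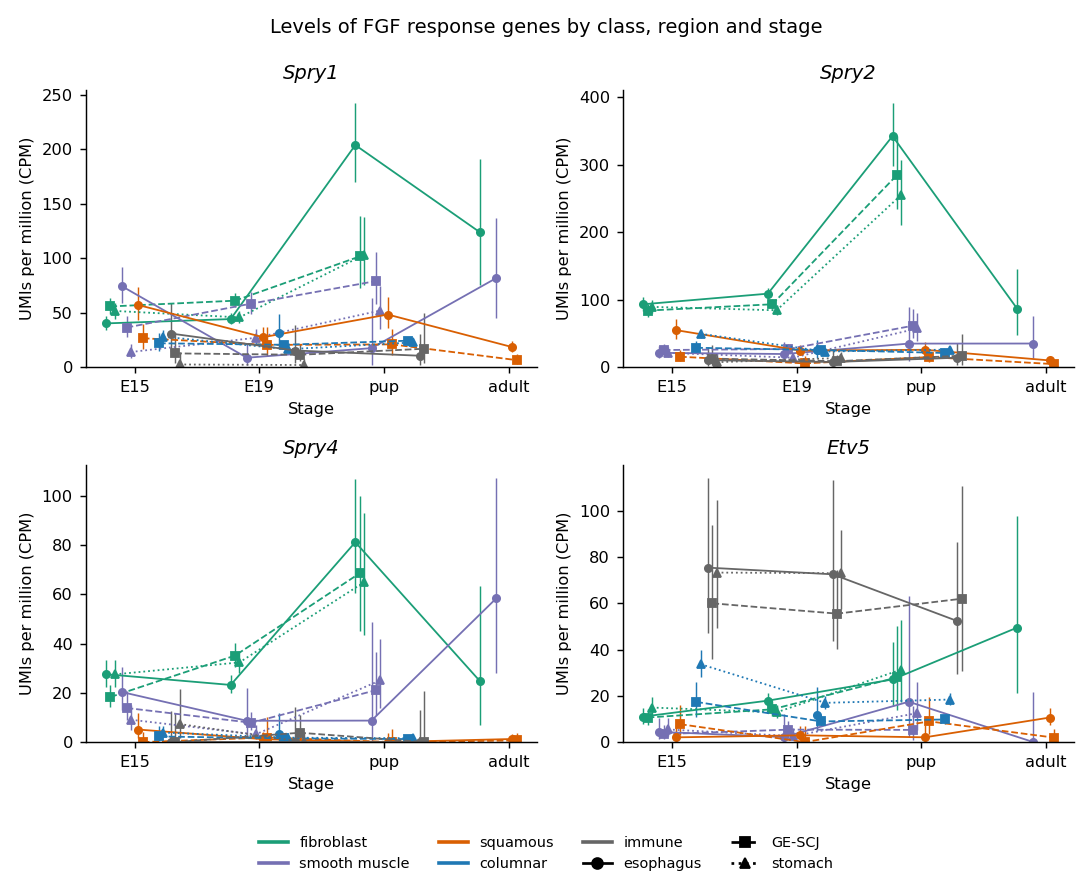
Levels of Spry1, Spry2, Spry4 and Etv5 in CPM (y axis) against stage (x axis), with colour for the cell class and marker and line style for the region; bars are exact Poisson 95% intervals, and groups hold at least 20 cells. Spry2 in fibroblasts is between 83.8 and 109 CPM before birth and between 255 and 342 CPM in pup, and Etv5 is between 52.3 and 75.4 CPM in immune cells.

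Seen against all genes, the step from E19 to pup in fibroblasts took in several of the 10. In esophagus 7 of them had at least 50 UMIs over both stages, of which 3 were at least 2-fold higher in pup (Spry1, Spry2, Spry4) and 1 lower (Fgfr2), where 9.75% of 10101 genes were higher and 9.5% lower by that fold. At the GE-SCJ 4 of 8 were higher (Fgfr1 at 1.06, Spry2, Spry4 and Etv5 at 1.09), and 1 was counted lower, Fgfr4, which had 0 UMIs in pup and was at least 1.26-fold lower against 3 UMIs in that group. There 8.53% of 9805 genes were higher and 11.4% lower. In stomach 5 of 8 were higher (Fgfr1 at 1.01, Spry1, Spry2, Spry4 and Etv5 at 1.37) and Fgfr2 was lower at -2.09 (-3.23 to -1.16), where 8.96% of 10201 genes were higher and 9.37% lower. Spry2 and Spry4 were counted higher in all 3 regions. The intervals of Spry4 at the GE-SCJ (0.38 to 1.58) and in stomach (0.44 to 1.60) reached below 1. That of Spry1 in stomach, given above, did too, and Fgfr1 at 1.06 and 1.01 and Etv5 at 1.09 lay close to this cut. Several of the genes counted were thus not set apart from 2-fold by counting error. The median over the genes counted was 0.67 in esophagus, beside 0.02 over all genes. Between E15 and E19 none of the 8 genes counted in esophageal fibroblasts differed by 2-fold, where 2.04% of genes were higher and 2% lower. These background shares would also give a count of 0. Of 9 genes counted in each of the other regions, 0 differed by 2-fold at the GE-SCJ. In stomach 1 was higher, where 2.33% of genes were. The pup and E19 ratios share their samples within a region, and 10 genes of one pathway are not independent.

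**Figure D4:**
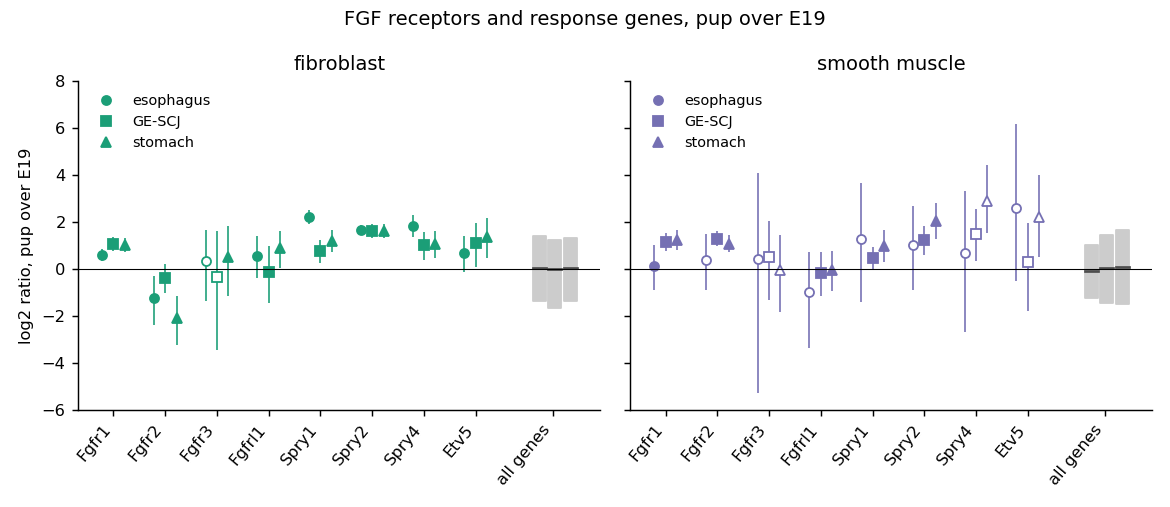
Log2 ratio of pup over E19 CPM (y axis) for 8 of the genes (x axis) in fibroblasts and smooth muscle cells, by region; bars are exact binomial 95% intervals, open symbols mark genes with under 50 UMIs over both stages, and grey bars span 5% to 95% of all genes with a dark line at the median. In fibroblasts Spry2 lies at 1.61 to 1.66 in all 3 regions and Fgfr2 below 0, and in smooth muscle of the GE-SCJ and stomach Fgfr2 lies at 1.28 and 1.07.

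Genes of the dissociation and stress response differed between the same groups. A list of 11 immediate early and heat shock genes (among them Fos, Jun and Egr1) summed to 3485 CPM in E19 and 17403 in pup fibroblasts of esophagus, 7644 and 14772 at the GE-SCJ, and 5317 and 13941 in stomach. Of the 11 genes, 11, 8 and 9 were at least 2-fold higher in pup in these regions. Pup fibroblasts were also shallower, with medians of 3859 to 5072.5 UMIs per cell against 9025 to 9172 at E19, and the part of depth in these ratios was not tested. Among cells with under 0.5% of their UMIs in the list, pup over E19 for Spry2 was 1.82 (1.40 to 2.21) in esophagus, 1.78 (1.30 to 2.23) at the GE-SCJ and 0.70 (-0.12 to 1.42) in stomach, the last from 20 pup cells. Among cells with 0.5% to 1.5%, it was 1.96, 1.5 and 2.23. For Spry1 the low band gave 2.54, 1.19 and 1.5, and for Spry4 2.00, 1.52 and -0.30 (-2.60 to 1.27). At the GE-SCJ Spry4 was at 0.55 (-1.35 to 1.95) in the middle band, and in cells with 1.5% or more Spry1 was at 0.60 (-0.37 to 1.49), both with intervals that included 0. For Fgfr1 the low band gave 0.91 (0.44 to 1.35), 1.25 (0.74 to 1.72) and 0.36 (-0.40 to 1.04) in the same order of regions. Its middle band gave 0.25 (-0.34 to 0.80), 0.94 and 0.77, and stomach cells with 1.5% or more gave 1.41 (0.83 to 2.01). For Etv5 the low band gave 0.54 (-1.36 to 1.95), 1.51 (-0.03 to 2.77) and 2.25 (0.87 to 3.40). The part of the stress response in the levels of these genes was not tested further. This division by stress share was chosen after seeing the data.

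**Figure D5:**
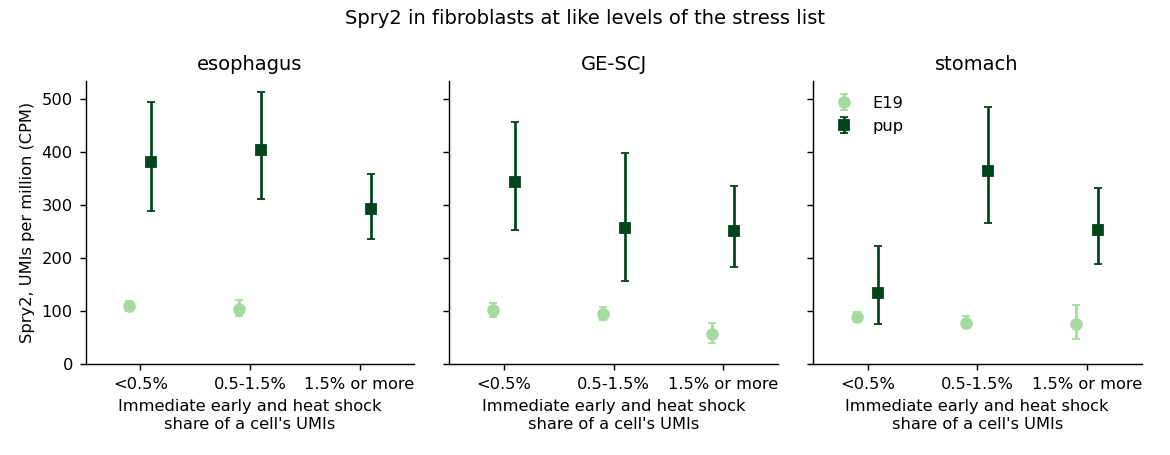
Level of Spry2 in CPM (y axis) in E19 and pup fibroblasts of each region, for cells in 3 ranges of the share of their UMIs from 11 immediate early and heat shock genes (x axis); bars are exact Poisson 95% intervals. In esophagus and at the GE-SCJ the pup points lie above the E19 points in every range drawn for both, and in stomach the lowest range has 135 CPM in pup against 88.4 at E19.

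Part of this difference between stages was also found in smooth muscle. At the GE-SCJ 3 of 5 genes with at least 50 UMIs were at least 2-fold higher in pup than at E19 (Fgfr1 at 1.15, Fgfr2 at 1.28, Spry2 at 1.21), where 10.5% of 7138 genes were higher. In stomach 3 of 5 were higher (Fgfr1 at 1.22, Fgfr2 at 1.07, Spry2 at 2.03), where 13% of 6380 genes were higher. The stress list differed between the same groups, at 4941 CPM in E19 and 15942 in pup at the GE-SCJ and 2490 and 14295 in stomach, with 9 and 11 of its 11 genes at least 2-fold higher in pup. At the GE-SCJ, cells with under 0.5% of their UMIs in the list gave pup over E19 ratios of 1.65 (1.03 to 2.24) for Fgfr1, 1.72 (1.23 to 2.20) for Fgfr2 and 2.19 (1.13 to 3.18) for Spry2. Those with 1.5% or more gave 0.08 (-0.76 to 0.99), 0.27 (-0.50 to 1.11) and -1.03 (-2.19 to 0.16), from 12 E19 cells. Fibroblast markers moved with these groups too, at 3819 CPM in E19 and 7514 in pup smooth muscle of the GE-SCJ and 3353 and 8543 in stomach. Without cells whose markers pointed to another class, pup over E19 at the GE-SCJ was 0.27 (-0.72 to 1.15) for Spry2. For Spry1 it was 0.46 (-0.05 to 0.95) over all cells and -0.27 (-1.05 to 0.43) without them, a change of sign. Spry2 of pup smooth muscle at the GE-SCJ therefore was 2-fold higher only with those cells included. Fgfr2 without them was at 1.03 (0.64 to 1.40) there and 0.995 (0.57 to 1.41) in stomach, and Spry2 in stomach at 1.48 (0.47 to 2.44). Spry1 of E15 smooth muscle differed between regions, at 74.1 CPM (59.1-91.7) in esophagus against 13.9 (8.82-20.9) in stomach, a stomach over esophagus ratio of -2.37 (-3.09 to -1.70).

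Spry2 was highest at E15 in esophageal squamous and stomach columnar cells. Esophageal squamous cells carried 57, 27.5, 48.3 and 18.4 CPM of Spry1 and 55, 24.6, 25.7 and 9.97 CPM of Spry2 from E15 to adult. Without the 29 cells of the second squamous label, pup esophagus read 57.8 CPM (39.8-81.2) of Spry1, no lower than E15, and 42.0 (26.9-62.6) of Spry2. Adult over E15 was -1.63 for Spry1 and -2.44 (-3.11 to -1.80) for Spry2, and with Fgfr2 3 of the 4 genes counted were at least 2-fold lower in adult, where 21.9% of 7881 genes were lower. Stomach columnar cells carried 49.5 (42.7-57.0), 23.1 (20.2-26.4) and 26 CPM (23.1-29.1) of Spry2 from E15 to pup. Summed over Spry1, Spry2 and Spry4, E15 over pup was 0.70 (0.49 to 0.90) in stomach columnar cells and 0.65 (0.22 to 1.10) in esophageal squamous cells, the opposite sign to fibroblasts. Without the second squamous label the latter was 0.22 (-0.25 to 0.70). The median E15 over pup ratio of all genes counted was 0.38 in stomach columnar and 0.67 in esophageal squamous cells. It was 0.096, 0.093 and 0.098 in fibroblasts of esophagus, GE-SCJ and stomach. The squamous sum of 0.65 thus lay near the median of all genes. At the GE-SCJ both epithelia had intervals that included 0, at 0.20 (-0.18 to 0.57) in columnar and 0.21 (-0.55 to 0.99) in squamous cells. Spry4 was sparse in epithelium, at 0 to 5.09 CPM in squamous and 1.22 to 3.88 in columnar cells against 49 (28.5-78.5) and 77.8 CPM (49.3-117) in endothelial cells of the GE-SCJ and stomach at E19.

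Etv4 and Etv5 were highest in different cells. Etv4 had its highest level in the early stomach lining. Columnar cells of E15 stomach carried 22.5 CPM (18.0-27.8), against 4.61 (3.35-6.19) at E19 and 4.2 (3.10-5.57) in pup. The E19 over E15 ratio was -2.27 (-2.83 to -1.74). Endothelial cells of E19 carried 11.5 CPM at the GE-SCJ and 13.5 in stomach. As a class level, Etv4 was at 11.2 CPM (6.86-17.3) in endothelial and 5.48 (4.81-6.23) in columnar cells. Columnar cells of the E15 GE-SCJ held it at 1.51 CPM (0.183-5.46), from 2 UMIs. Etv5 in stomach columnar cells read 33.7 (28.1-40.0), 17 (14.5-19.8) and 18.4 CPM (16.0-21.1), and E15 over pup for the sum of Etv4 and Etv5 was 1.32 (1.05 to 1.58). In these cells 3 of 9 genes counted were at least 2-fold lower at E19 than at E15 (Etv4, Spry2 at -1.10 and Fgfr4 at -1.83) and 1 was higher (Fgfrl1), where 3.85% and 3.62% of 10627 genes were. Etv4 and Etv5 together were lower at E15 than in pup in fibroblasts, at -1.44 (-2.21 to -0.62) in esophagus, -1.5 (-2.33 to -0.60) at the GE-SCJ and -1.01 (-1.79 to -0.16) in stomach.

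Etv5 was highest in immune cells. It ranged from 52.3 to 75.4 CPM over 8 immune groups, with a class level of 65.1 (57.2-73.8) against 14.9 (13.6-16.2) in fibroblasts and 16.4 (15.2-17.6) in columnar cells. Immune over fibroblast ratios ran from 0.96 to 2.80 over the 8 region and stage pairs, with intervals above 0 in the 6 prenatal pairs and intervals that included 0 in the pup pairs. Dusp6, a phosphatase induced by the MAP kinase cascade, was at 129 to 302 CPM in the same immune groups. The 4 kinase receptors summed to between 0 and 57.3 CPM there. Etv4 was at 0 in 7 of the 8 immune groups and had 2 UMIs in the remaining one. In pup immune cells of the GE-SCJ, 0 UMIs allows up to 20.8 CPM.

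Fgf10, Fgf7 and Fgf2 were ligands of the mesenchyme. Of 18 FGF genes listed, 12 were in the table and 4 had at least 500 UMIs. Fgf10 was highest in stomach: E15 fibroblasts carried 66.5 CPM (58.6-75.2) in stomach, 17.5 (13.5-22.3) at the GE-SCJ and 9.71 (6.84-13.4) in esophagus, and E15 smooth muscle 105 (89.6-121) in stomach against 3.53 (0.961-9.03) in esophagus. In stomach smooth muscle it read 48.2 CPM (38.9-59.0) at E19 and 12.5 (5.04-25.8) in pup. Stomach fibroblasts did not share this order after E19, with 25.9 CPM at E19 and 47 (29.1-71.9) in pup, and their intervals overlapped. Second stromal cells carried 52.6 CPM (34.7-76.5) of Fgf10 at the GE-SCJ at E19 and 96.8 (58.3-151) in pup stomach. No epithelial group passed 3.31 CPM. Fgf7 in esophageal fibroblasts read 9.45 (6.62-13.1) at E15 and 41.4 CPM (36.8-46.5) at E19, a log2 ratio of 2.10 (1.60 to 2.63), with 1.37 at the GE-SCJ and 1.82 in stomach. Later it read 19.1 CPM (9.88-33.4) in pup and 30.9 (10-72.2) in adult esophageal fibroblasts, and its highest level was in adult esophageal smooth muscle, at 99.2 (57.8-159). The levels of Fgf7 at E19 were 17 CPM (13.8-20.7) and 16.5 (13.5-19.9) in these regions, below esophagus. The 2 ligands that share the epithelial form of Fgfr2 were therefore highest in fibroblasts of different regions before birth.

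Fgf9 was highest in the second stromal cells and was also found in columnar cells and fibroblasts. Columnar cells carried 37.8 (28.0-49.8), 23.6 (20.2-27.4) and 8.67 CPM (6.77-10.9) at the GE-SCJ and 34.7 (29.1-41.1), 22.1 (19.2-25.3) and 8.06 (6.49-9.88) in stomach from E15 to pup. Second stromal cells of the GE-SCJ at E19 had 162 CPM (129-200) and those of pup stomach 86.6 (50.4-139). Fibroblasts read 13.1 (9.72-17.3), 16.5 (13.5-19.9) and 24.6 CPM (12.3-44.1) in stomach, above columnar cells in pup, and 4.24, 14 and 2.54 at the GE-SCJ, against 0.262 to 6.19 in esophagus. Fgf2 stayed between 14.4 and 37.1 CPM in fibroblasts.

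Other response genes were followed from a list of 9, and 6 of them had at least 50 UMIs in fibroblasts over E19 and pup. Of these, 2 were at least 2-fold higher in pup in esophagus, 1 at the GE-SCJ and 2 in stomach, and none was lower, where 9.75%, 8.53% and 8.96% of all genes were higher, so that the count at the GE-SCJ was near the background. Dusp6 was among them in each region, with ratios of 4.00 (3.51 to 4.51), 1.12 and 1.13; in esophageal fibroblasts it read 15.7 CPM at E15, 8.31 at E19, 134 in pup and 55.7 in adult. Etv1 was at 1.39 in esophagus, and Il17rd, which encodes an inhibitor of FGF signalling, at 1.63 in stomach. Of 5 adaptors counted (Frs2, Grb2, Gab1, Sos1 and Ptpn11), 0 passed 2-fold in any of the 3 regions, which these background shares would also give. In esophageal squamous cells 3 of 4 other response genes counted were at least 2-fold lower in adult than at E15 (Spred1 at -1.62, Spred2 at -1.30, Dusp5 at -1.84), where 21.9% of all genes were lower, and 0 of the 5 adaptors.

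Across the 54 groups, the 3 genes most like a receptor or response gene were found by Pearson r of log2(CPM + 10). The search covered 11672 genes with at least 500 UMIs, and Fgfr4 and Etv4, with fewer UMIs, were left out. These are descriptions, since groups share 1 library and differ in depth. Fgfr1 was most like Nid1 (r = 0.947), Reck (0.941) and Kirrel (0.939), and Nid1 encodes a basement membrane protein. Fgfr3 was most like Fam83h (0.925), Ripk4 (0.909) and Urah (0.908), where Ripk4 encodes a kinase needed for keratinocyte differentiation. Fgfr2 was most like the homeobox gene Pitx1 (0.866) and then, less closely, Tead3 (0.759). Spry1 and Spry2 shared their nearest genes, Camk2n1 (0.772 and 0.881) and Cyth3, and Etv5 was most like Gmip (0.841), Apbb1ip (0.840) and Arrb2 (0.816). Between the genes themselves, r was 0.797 for Fgfr1 and Spry2, 0.722 for Spry1 and Spry2, 0.549 for Fgfr2 and Fgfr3, and -0.611 for Fgfr2 and Etv5. Etv4 and Etv5 had an r of 0.168 over all classes, 0.751 over 15 epithelial groups and 0.735 over 20 fibroblast and smooth muscle groups. Etv4 reached at most 7.46 CPM in squamous groups and had a median of 4.20 over columnar groups, below the 10 CPM added. The weight of E15 stomach columnar cells, at 22.5 CPM of Etv4, in the epithelial r was not tested.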

How the data were processed

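The authors sequenced multiplexed 10x Genomics 3′ libraries, mapped them with Cell Ranger 6.1.1 (per the submitters' processing notes) and deposited raw UMI counts per gene and cell, the percent of mitochondrial UMIs per cell deposited beside a class label, and a region and stage tag. Cells were used as deposited, after the authors' filters; no further doublet call was made. Both squamous labels were joined. UMIs were summed per class, region and stage and scaled to CPM. Groups had 1 pooled sample each, so no test was run. Intervals were exact Poisson, conditional binomial or Clopper-Pearson at 95%. A gene was counted past 2-fold with at least 50 UMIs over both groups. All 10 genes are named; ligands with at least 500 UMIs and other pathway genes with at least 1000 UMIs are named. Genes and lists were chosen with earlier results of these data known. The comparison was tested on simulated data. Computations ran under scipy 1.17.1, pandas 2.3.3, numpy 2.4.6, matplotlib 3.10.9 and Python 3.11.15. Promoter sequences are from RefSeq, GRCm38.p6. Groups held 99720 to 11420234 UMIs. An upper Poisson bound is given for some single groups of 0 UMIs and not for ranges that start at 0. Alternatives were the mean of single-cell CPM, stricter cell filters, another library size, omission of the highest cells, of cells with markers of another class, and of postnatally tagged cells among prenatal neighbours.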

Additional observations from a re-analysis of the deposited data

Results flagged for a closer look

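Fgfr1 differed in opposite directions between E15 and E19 in fibroblasts and columnar cells. The log2 ratio of E19 over E15 was 0.24 in fibroblasts of esophagus, 0.38 at the GE-SCJ and 0.35 in stomach, and -1.62 in columnar cells of the GE-SCJ and -0.94 in those of the stomach. Fibroblast markers in the columnar cells summed to 637 CPM at E15 and 409 at E19 at the GE-SCJ, and to 287 and 345 in stomach, and their part in the columnar values was not tested. The difference between the classes was not tested, since each group is 1 pooled sample.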

How the results depend on the processing

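No paired analysis was possible because each region and stage is 1 pooled sample with no replicate number. Of 213 alternative values for 35 ratios, 210 moved by less than their counting interval, 3 moved by more, and 0 changed sign among those whose interval left out 0. The Etv sum in esophageal squamous cells and the Spry sum in squamous cells of the GE-SCJ, whose intervals included 0, changed sign under some alternatives. Fgfr2 of adult over E15 esophageal squamous cells was -1.02 as the mean of single-cell CPM. The Spry1, Spry2 and Spry4 sum of E15 over pup was -0.26 in smooth muscle of the GE-SCJ without cells whose markers named another class, and 0.22 in esophageal squamous cells without the second squamous label, an omission chosen after seeing the data. After thinning to 5000 UMIs, shares of E15 and adult esophageal squamous cells were 75.9% and 41.5% for Fgfr2 and 24.1% and 37.4% for Fgfr3. For pup over E19, 214 of 216 alternatives stayed within the interval, and Spry1 at -0.27 and Spry2 at 0.27 in smooth muscle of the GE-SCJ, without cells of other markers, did not; Spry1 there, and Fgfr1, Spry4 and Etv5 in some smooth muscle groups with intervals that included 0, changed sign. The cause was not tested. The counts past 2-fold in fibroblasts, pup over E19, were 4, 5 and 6 in esophagus, GE-SCJ and stomach. They stayed within 1.5 times of these at a minimum of 20 UMIs and with no minimum. A lower minimum can only add genes, and 3, 2 and 2 of the genes had under 50 UMIs in these regions. At the GE-SCJ and in stomach the counts thus could not pass 1.5 times, and in esophagus only if all 3 were added. This rerun therefore does not show whether the counts depend on the minimum. Other counts were not rerun. Depth limited Fgfr4 and Etv4, with 366 and 393 UMIs in all.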

Other observations

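Cells labelled neural carried Fgfr1 and Spry2 at levels near those of fibroblasts. Neural groups had 59.2 to 221 CPM of Fgfr1 and 52.6 to 211 CPM of Spry2, highest in pup stomach for both, at 221 (138-334) and 211 (130-322). Fgfr2 and Fgfr3 were low there, with class levels of 4.27 CPM (2.44-6.94) and 2.4 (1.10-4.56). Of 419 neural cells, 118 had marker UMIs that pointed to another class, and fibroblast markers summed to 9144 CPM in pup esophagus and 6137 in pup stomach against 318 to 1276 at E15; their part in these levels was not tested.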
